A study of Mus musculus with 4 samples.

Results

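The genes described here are 10 members of the canonical Wnt pathway, out of 24594 genes in the table of read counts. They are the TCF/LEF transcription factors (Lef1, Tcf7, Tcf7l1 and Tcf7l2), β-catenin (Ctnnb1) and genes known as Wnt targets or feedback regulators (Axin2, Nkd1, Notum, Sp5 and Cdx1). They were chosen because Lef1 was higher in cells lacking SNF2L, to ask whether other Wnt genes moved with it. The level of Lef1 in these libraries therefore chose the group and is given as a description without a test. Poly(A) transcripts were sequenced from mouse embryonic stem (ES) cells of 129S6/SvEvTac background, with 2 libraries of wild-type (WT) and 2 of snf2l knock-out cells (here knockout), all untreated. Snf2l is the gene Smarca1, one of the ATPases of the ISWI chromatin remodelers. Per the study's methods, cells of this kind were grown on gelatin in medium with serum and leukemia inhibitory factor, and 1 clone was kept per genotype, so genotype and clone cannot be told apart.

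In canonical Wnt signaling, a Wnt ligand binds a Frizzled receptor together with LRP5 or LRP6, and the complex that otherwise marks β-catenin for destruction is held back. β-catenin then enters the nucleus and binds TCF/LEF proteins, which recognize the same short DNA motif, so that genes such as Axin2, Sp5 and Lef1 are transcribed. In ES cells TCF7L1 acts mainly as a repressor of pluripotency genes, whereas TCF7 and LEF1 can activate with β-catenin.

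The libraries held between 13771642 and 15608803 counts. Smarca1 was counted 620 and 626 times in WT, against 37 and 31 times in the knockout, so all 4 labels matched the level of the targeted transcript. The summed level of 10 ES cell markers was 4864 and 5213 CPM in WT (CPM being counts scaled for the size of the library) and 5207 and 5416 CPM in the knockout, and all 10 were detected. Of these markers 2 were called, in opposite directions, Zfp42 at a log2 fold change of -0.60 and Klf4 at 0.34, and 5 were under 0.05 before adjustment. In edgeR, 9.21% of the 13840 genes tested passed an adjusted p of 0.05 (a call), and 3066 had an unadjusted p-value under 0.05. On chromosome 8 the median log2 fold change was -0.51, and Nkd1, Sfrp1 and Tnks lie there, as do Zfp42, Sox1 and Klf2 of the marker and pluripotency lists.

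To show the DNA in front of the genes with the largest and the next largest rise among the 10, the 250 bases before the annotated start of Lef1 and of Sp5 are printed from RefSeq (GRCm38.p6, plus strand in both). Lef1 has 4 windows in this table, and the first is shown. Of the forms of the TCF/LEF core, only CTTTGAT and CTTTGAA were searched, on both strands. The search ran from 250 bases before to 50 bases after each start, and a match is in capitals.
Lef1, chr3:131110047-131110296: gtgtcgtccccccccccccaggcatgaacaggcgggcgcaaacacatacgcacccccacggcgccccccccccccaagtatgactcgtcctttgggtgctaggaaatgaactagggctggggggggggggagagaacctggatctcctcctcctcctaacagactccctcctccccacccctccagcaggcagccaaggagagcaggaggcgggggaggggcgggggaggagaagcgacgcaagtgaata
Sp5, chr2:70474673-70474922: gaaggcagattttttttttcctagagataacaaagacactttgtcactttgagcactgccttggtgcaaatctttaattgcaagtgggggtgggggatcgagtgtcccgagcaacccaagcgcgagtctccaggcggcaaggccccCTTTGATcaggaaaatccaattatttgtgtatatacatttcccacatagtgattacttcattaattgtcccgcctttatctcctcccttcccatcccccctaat
The Sp5 window held CTTTGAT on the plus strand, with its first base at position -104 from the start. Windows were given for 8 of the 10 genes, and of their 14 windows this 1 held either motif. Among all 32851 windows, 8.65% held either motif and 3.73% held CTTTGAT. A match of these letters is a description and not a binding site.

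Lef1 (Entrez gene 16842, chromosome 3, 131110297 to 131224357) codes for a TCF/LEF factor that is itself a known Wnt target. Its reads numbered 65 and 82 in WT, against 323 and 294 in the knockout. This equals 4.77 and 5.35 CPM in WT and 20.6 and 19.1 CPM in the knockout, so both knockout libraries lay far above both WT libraries. The log2 fold change was 1.97, or 3.91-fold, and Lef1 held rank 15 of the 13840 genes when they were ordered from the largest rise down, so that 0.108% of genes rose as much or more. The counts sum over all start sites of the gene, so longer and shorter Lef1 transcripts are not separated here.

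**Figure D1:**
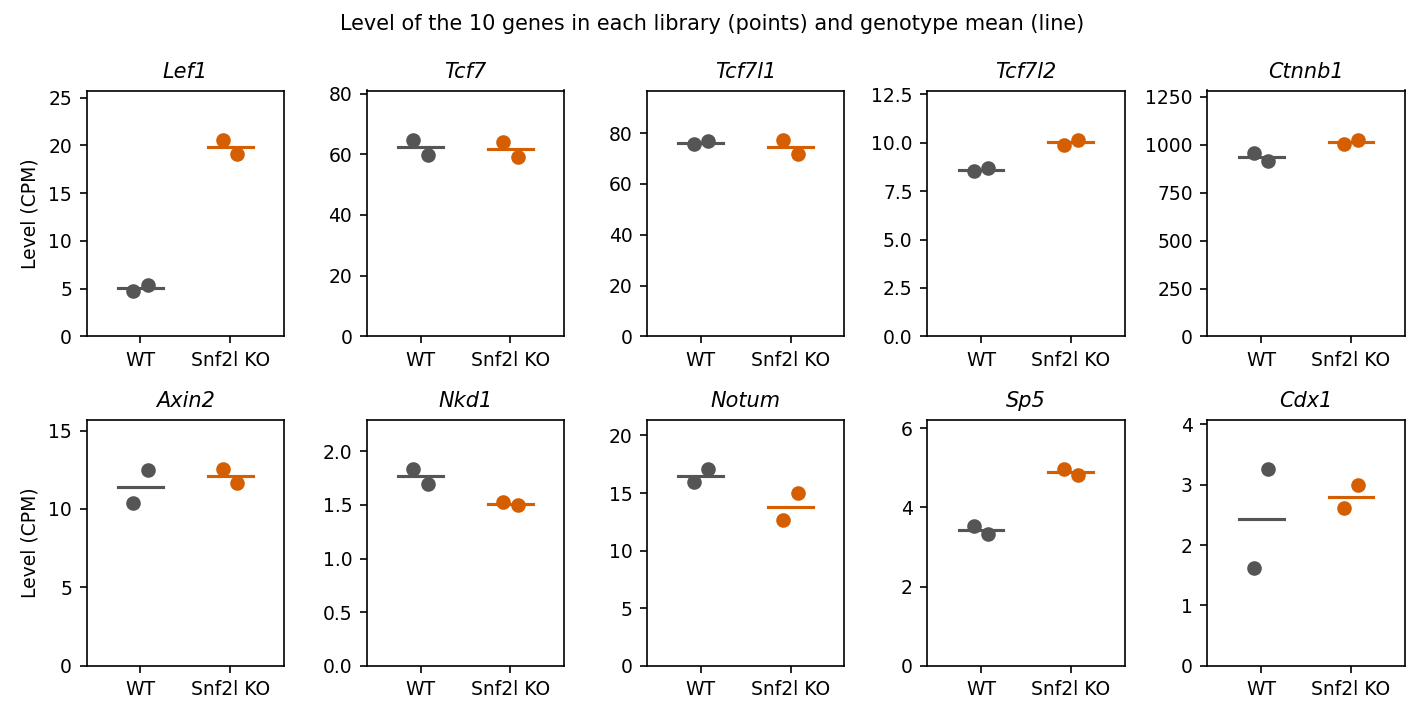
Level in CPM (vertical axis, from 0, with its own scale in each panel) of the 10 genes in the WT and Snf2l knockout (KO) libraries. Points are single libraries and lines are means of 2 libraries. The Lef1 libraries lie at 4.77 and 5.35 CPM in WT and at 20.6 and 19.1 CPM in the knockout, whereas the points of Tcf7, Tcf7l1, Axin2 and Cdx1 overlap between genotypes.

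Markers of other cell types moved with genotype beside the rise of Lef1, and in bulk RNA a change in the number of cells of a type and a change in RNA per cell cannot be told apart. The summed level of 8 fibroblast markers was 15.4 and 12.7 CPM in WT and 28.5 CPM in both knockout libraries. Of these, 6 were tested, and Col1a1 and Col3a1 were called, beside 9.21% of all genes tested called in either direction. All 6 had higher levels in both knockout libraries, beside 25.2% of all genes tested. Col3a1 and Postn passed the filter on low counts only through the knockout, which favoured higher values in this count, and Lum had 0 counts in every library. The sum of 7 primitive endoderm markers was 17.3 and 16.2 CPM in WT and 27.3 and 27.7 CPM in the knockout. Among these markers 4 of 6 tested genes were called, all higher, beside the same 9.21% of all genes tested. The sum of 6 neural progenitor markers was 72.2 and 72.9 CPM in WT and 35.9 CPM in both knockout libraries. All 3 tested genes were called and lower, beside 5.21% of all genes tested called lower. Of these 3, Sox1 lies on chromosome 8, and its log2 fold change of -0.59 was near the median of that chromosome. The sum of 9 primitive streak and mesoderm markers, the cell types in which Wnt targets are known to be high, was 4.63 and 4.89 CPM in WT and 4.84 and 4.10 CPM in the knockout, with 0 of 2 tested genes called in edgeR and 0 at an unadjusted p-value under 0.05. Msgn1 of this list had 0 counts in every library. The part of these markers in the level of Lef1 or of the other genes was not tested.

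Of the other TCF/LEF and Wnt genes chosen with Lef1, none was called. Among these 9, 0 reached an adjusted p of 0.05 in edgeR, against 9.21% of all genes, and 1, Sp5, had an unadjusted p-value under 0.05. Over all genes tested, 3066 of 13840 had such an unadjusted p-value. DESeq2 also called 0 of these 9. All 9 passed the filter on low counts, and the 95% intervals of their fold changes lay between 0.560-fold and 1.91-fold, so that each excluded a 2-fold change in either direction. Their median log2 fold change was 0.081, beside 0.000 for all genes tested. In 5 of the 9 the libraries of the genotypes did not overlap, 3 being higher and 2 lower in the knockout. Over all genes tested this held for 50.5%, with 25.2% higher and 25.3% lower, while 49.5% overlapped.

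**Figure D2:**
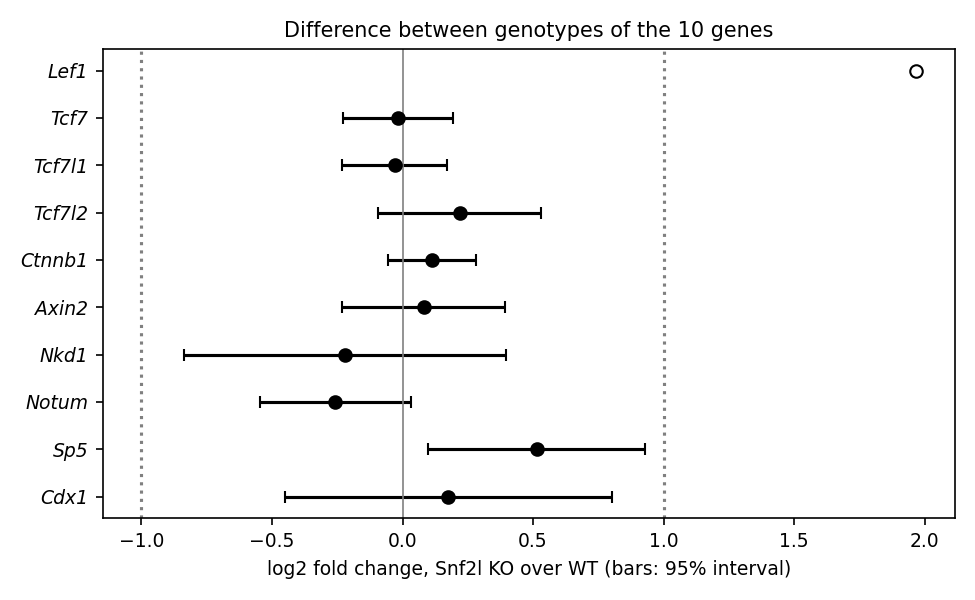
Log2 fold change of the 10 genes, knockout over WT (horizontal axis), with dotted lines at a 2-fold change. Bars are 95% intervals from the edgeR fit with 2 libraries per genotype, and Lef1, which chose the group, is drawn as an open point without one. The bars of all 9 other genes stay inside the dotted lines.

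Tcf7 and Tcf7l1 made up most of the TCF/LEF transcripts in both genotypes. Tcf7, which codes for TCF1, was at 64.8 and 59.9 CPM in WT and at 64.1 and 59.1 CPM in the knockout (log2 fold change -0.02, SE 0.098, edgeR adjusted p = 0.951), and the sign of this value turned under upper-quartile scaling and with unscaled library sizes. An end of the annotated Tcf7 overlaps the gene Skp1, and Tcf7l1 overlaps Gm15401, so that reads there could belong to either gene. Tcf7l1 was at 75.6 and 76.9 CPM in WT and at 77.4 and 71.9 CPM in the knockout (log2 fold change -0.03, SE 0.093, edgeR adjusted p = 0.894), again with the sign turned under upper-quartile scaling. For both genes the libraries of the genotypes overlapped. Tcf7l2, which codes for TCF4, the main TCF of the intestinal epithelium, was at 8.52 and 8.68 CPM in WT and at 9.88 and 10.2 CPM in the knockout. Both knockout libraries were higher, but the difference of 0.22 (SE 0.146) on the log2 scale had an edgeR adjusted p of 0.420.

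Levels of different genes were compared per kb of gene length (CPM per kb). In WT, Lef1 was the least abundant of the TCF/LEF family at 0.576 ± 0.0463, below Tcf7l2 at 0.980 ± 0.0126, Tcf7l1 at 19.4 ± 0.240 and Tcf7 at 20.7 ± 1.15 CPM per kb (SD, n = 2 each). In the knockout, Lef1 was at 2.26 ± 0.117 and lay above Tcf7l2 at 1.14 ± 0.0219 CPM per kb (SD, n = 2 each). Tcf7l1, at 19.0 ± 0.998, and Tcf7, at 20.4 ± 1.16, overlapped there (SD, n = 2 each). Lef1 thus took 1.29% and 1.48% of the summed TCF/LEF level per kb in the WT libraries, and 5.27% and 5.28% in the knockout libraries. The level of Tcf7l1 per kb was 33.8 ± 2.301 times that of Lef1 in WT and 8.42 ± 0.00492 times in the knockout (SD, n = 2 each). The summed level of the family was 42.2 and 41.0 CPM per kb in WT and 44.4 and 41.3 CPM per kb in the knockout, and these ranges overlap. Without gene length the share of Lef1 was 3.33% in WT and 11.9% in the knockout.

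**Figure D3:**
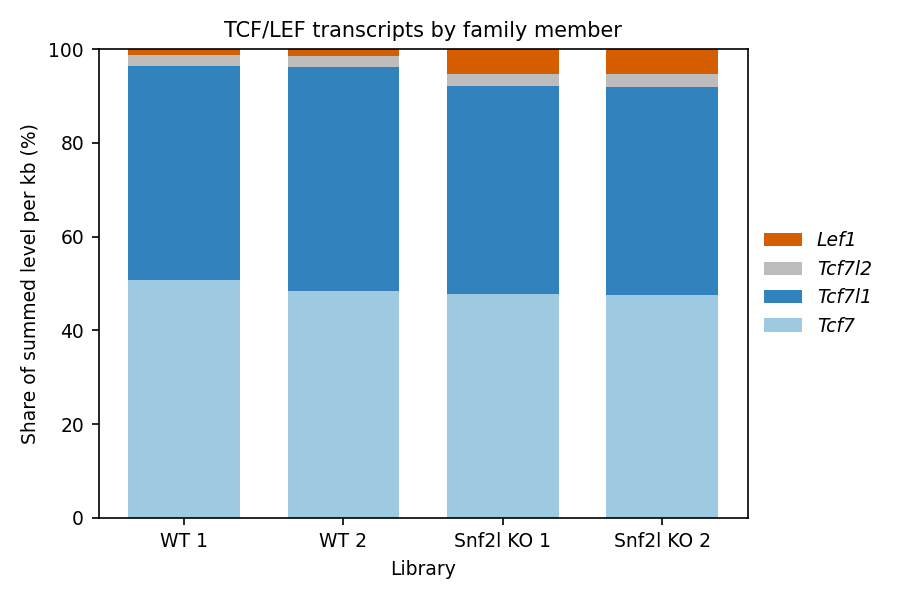
Share of each TCF/LEF gene in the summed level per kb of the 4 genes (vertical axis, percent), 1 bar per library. Lef1 takes 1.29% and 1.48% in the WT libraries and 5.27% and 5.28% in the knockout libraries, while Tcf7 and Tcf7l1 fill most of every bar.

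Ctnnb1, which codes for β-catenin, was by far the most abundant of the 10 genes. It was at 960 and 918 CPM in WT and at 1003 and 1027 CPM in the knockout. Both knockout libraries were higher, with a log2 fold change of 0.11 (SE 0.078, adjusted p = 0.445 in edgeR) and an interval from 0.963-fold to 1.21-fold. Per kb it was 4.42 ± 0.0492 times the summed TCF/LEF level in WT and 4.65 ± 0.323 times in the knockout (SD, n = 2 each). RNA counts do not show the stability of the β-catenin protein, through which the pathway is known to act.

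Axin2 codes for a scaffold of the destruction complex and is the Wnt target most widely used as a readout. It was at 10.4 and 12.5 CPM in WT and at 12.6 and 11.6 CPM in the knockout, and the genotypes overlapped. The log2 fold change of Axin2 was 0.08 (SE 0.146, adjusted p = 0.806 in edgeR), with an interval from 0.853-fold to 1.31-fold. Notum codes for an enzyme that removes the lipid Wnt ligands need. It was at 15.9 and 17.1 CPM in WT and at 12.7 and 14.97 CPM in the knockout, lower in both knockout libraries, with a log2 fold change of -0.26 (SE 0.135, adjusted p = 0.286 in edgeR).

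Sp5 codes for a zinc-finger factor that acts downstream of Wnt in early embryos, and of the 9 genes other than Lef1 it had the smallest p-value. It was counted 48 and 51 times in WT, against 78 and 74 times in the knockout, which is 3.53 and 3.33 CPM against 4.97 and 4.82 CPM. Both knockout libraries were higher, by 1.43-fold with an interval from 1.07-fold to 1.91-fold. The log2 fold change was 0.51 (SE 0.194), with an unadjusted p of 0.0186 and an adjusted p of 0.125 in edgeR.

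The remaining targets were low. Nkd1, which codes for an inhibitor of Dishevelled, was counted 25 and 26 times in WT, against 24 and 23 times in the knockout, at a log2 fold change of -0.22 (SE 0.288, adjusted p = 0.726 in edgeR). It lies on chromosome 8, and with the median shift of that chromosome removed its log2 fold change was 0.28. Cdx1, a homeobox gene of the posterior embryo, was counted 22 and 50 times in WT, against 41 and 46 times in the knockout. The WT libraries of Cdx1 differed from each other more than the genotypes did (log2 fold change 0.18, SE 0.292, edgeR adjusted p = 0.786). At these counts the intervals were wide, from 0.560-fold to 1.32-fold for Nkd1 and from 0.733-fold to 1.74-fold for Cdx1.

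By level per kb in WT, the 10 genes ran from Ctnnb1 (184) through Tcf7, Tcf7l1, Notum (6.86), Axin2 (2.07), Sp5 (1.63), Cdx1 (1.39), Tcf7l2 and Lef1 to Nkd1 (0.388). The libraries of Cdx1 spanned those of Sp5 and of Tcf7l2, so these neighbours in the order were not separated. In the knockout, Lef1 stood between Sp5 (2.33) and Axin2 (2.20), and its libraries overlapped those of both neighbours.

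The rest of the pathway was examined in 101 further genes, grouped by role. Of these, 76 passed the filter on low counts, and 11 were called by edgeR, or 14.5% against 9.21% of all genes tested. Of these, 5 were higher in the knockout and 6 lower, where all genes gave 4.0% higher and 5.21% lower. Of the 6, Sfrp1 and Tnks lie on chromosome 8, which held 453 of the 721 lower calls of all genes. Off that chromosome, 9 of 74 were called, 5 higher and 4 lower, beside 814 of 13086 genes, 546 higher and 268 lower. The calls include Wnt4 and Wnt8a, which passed the filter only through the knockout, and with a minimum of 10 counts in each library 9 calls were left, 3 higher and 6 lower. Under upper-quartile scaling 6 were higher and 4 lower. At the threshold of the study (adjusted p under 0.01 and a change over 2-fold) there were 2, Wnt7b and Ror1, both higher. At that threshold 0.990% of all genes passed, and 0.571% were higher. The median log2 fold change of the 76 genes was 0.061, beside 0.000 for all genes tested. Besides Wnt4 and Wnt8a, Rnf43, Dkk1, Cdx2, Cd44, Wnt11 and Tle2 passed the filter only through the knockout. This favoured a higher median, which is given as a description. With 1 library left out, which left 1 library in a genotype, the number of calls moved in both directions, as did that over all genes. Wnt7b, Ror1 and Znrf3 kept an adjusted p-value under 0.05 in all 14 alternatives computed for them.

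Of 20 other target and feedback genes, 16 were tested and 1 was called, beside 9.21% of all genes tested. The called gene was lower. The other values of this list lay mostly on the other side, with 12 of 16 log2 fold changes above 0 and a median of 0.17. At an unadjusted p-value under 0.05 there were 4 genes, the called gene among them, beside 3066 of all 13840 genes tested. The genotypes did not overlap in 11 genes that were higher and 3 that were lower, beside 25.2% and 25.3% of all genes. Rnf43, Dkk1, Cdx2 and Cd44, all among the 11, passed the filter only through the knockout, so these counts and the median are a description. Znrf3, a ubiquitin ligase that clears Frizzled receptors and is induced by Wnt, was at 32.1 and 27.4 CPM in WT and at 20.5 and 17.6 CPM in the knockout. The log2 fold change of Znrf3 was -0.64 (SE 0.127, adjusted p = 4.35e-03 in edgeR), lower in both knockout libraries. Rnf43, its close relative, had between 6 and 17 counts. The most abundant genes of this list were Ccnd1 and Myc, regulators of the cell cycle and of growth. Ccnd1 had a log2 fold change of 0.11 (SE 0.086, adjusted p = 0.504 in edgeR). Myc was at 106 and 110 CPM in WT and at 131 and 133 CPM in the knockout, higher by 0.28 (SE 0.089), with an edgeR adjusted p of 0.0608. Over the alternatives other than the replicate block its adjusted p in edgeR and DESeq2 ran from 0.0414 under upper-quartile scaling to 0.463 without WT replicate 1. Of the 4 genes not tested, Lgr5, a marker of Wnt-driven stem cells, was counted 8 and 6 times in WT, against 3 and 3 times in the knockout. Brachyury (T), the classical Wnt target of the primitive streak, had between 3 and 4 counts in every library.

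**Figure D4:**
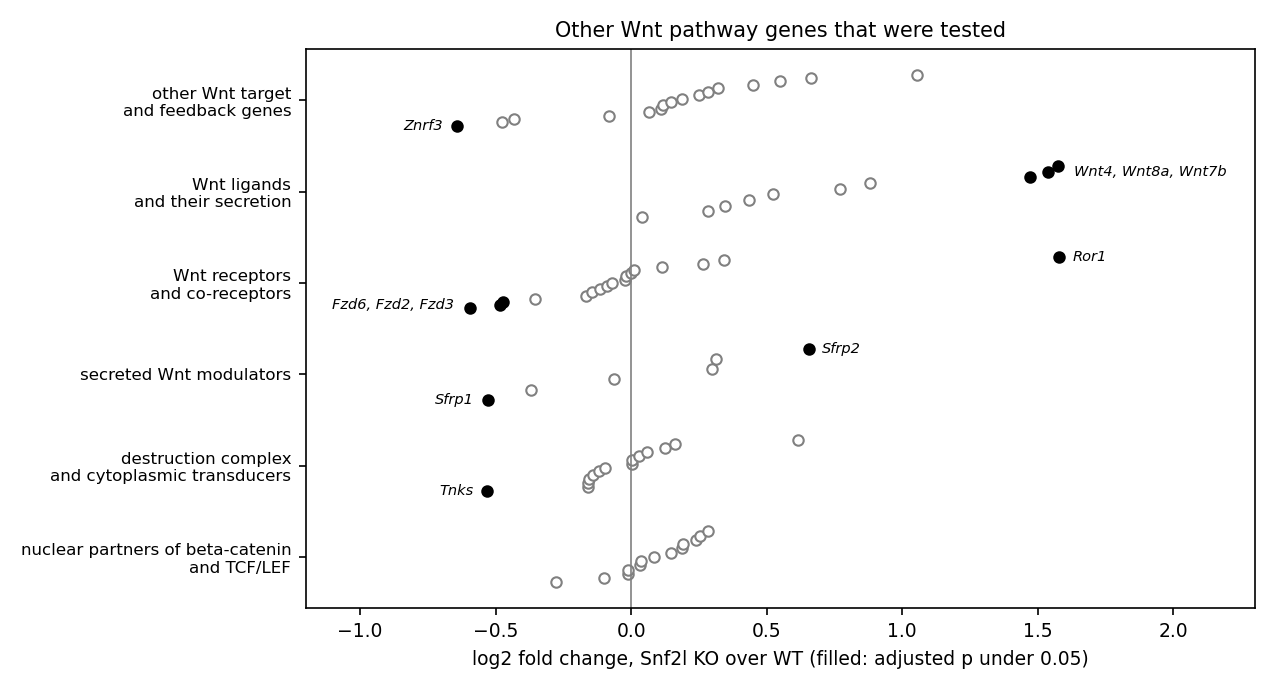
Log2 fold change, knockout over WT (horizontal axis), of the 76 tested genes of 6 pathway lists. Each point is a gene, and filled, named points have an adjusted p-value under 0.05 in edgeR, Wnt4 and Wnt8a among them although they passed the filter only through the knockout, while vertical spread within a list only separates the points. Wnt7b, Ror1, Wnt4, Wnt8a and Cdx2, which was not called, lie beyond a 2-fold rise. The called Frizzled genes, Znrf3, Sfrp1 and Tnks lie to the left of 0.

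Ligand genes were low in these cells, and Wnt7b was the called gene of this list that passed the filter on low counts in both genotypes. Wnt7b (Entrez gene 22422, chromosome 15, 85535437 to 85581821) was counted 62 and 81 times in WT, against 239 and 218 times in the knockout. It was at 4.92 ± 0.516 CPM in WT and at 14.7 ± 0.741 CPM in the knockout (SD, n = 2 each), with a log2 fold change of 1.57 (SE 0.157, adjusted p = 3.21e-05 in edgeR). Wnt4 was counted 7 and 9 times in WT, against 21 and 27 times in the knockout, and Wnt8a was counted 5 and 8 times in WT, against 19 and 22 times in the knockout. With fewer than 10 counts in each WT library, both genes entered the test only through the knockout, so their calls are given no weight here.

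All 10 tested genes of the ligand list had a positive log2 fold change, but low genes entered the test more easily when the knockout was high, so this count is not read further. With every gene of at least 1 count included, 13 of 19 were higher and 6 lower. Wnt3, a ligand of the primitive streak, was among the untested genes, with 12 and 10 counts in WT and 6 and 4 in the knockout. Wnt1 and Wnt2 had 0 counts in all 4 libraries. Porcn, which attaches the lipid to Wnt ligands, was at 25.3 and 24.3 CPM in WT and at 24.7 and 26.3 CPM in the knockout (edgeR adjusted p = 0.886).

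All 17 receptor genes were tested, and 4 were called, 1 higher and 3 lower, beside 9.21% of all genes tested called in either direction. Ror1, a receptor for noncanonical Wnt ligands, was counted 15 and 16 times in WT, against 58 and 42 times in the knockout, a log2 fold change of 1.58 (SE 0.291, adjusted p = 2.78e-03 in edgeR). Fzd6 fell by 0.59 (SE 0.161, adjusted p = 0.0303 in edgeR), Fzd2 by 0.48 (SE 0.135, adjusted p = 0.0359 in edgeR) and Fzd3 by 0.47 (SE 0.135, adjusted p = 0.0396 in edgeR) on the log2 scale. These Frizzled calls were near the threshold. The adjusted p of Fzd2 was 0.0830 without WT replicate 1, 0.154 without WT replicate 2 and 0.145 without knockout replicate 2. That of Fzd3 was 0.256, 0.0675 and 0.0649 without the same libraries, and that of Fzd6 was 0.222 without WT replicate 2 and 0.0598 without knockout replicate 2. DESeq2 called none of these 3 genes, with adjusted p-values of 0.207 for Fzd2, 0.237 for Fzd3 and 0.245 for Fzd6. With the chromosome 8 shift removed, the edgeR adjusted p was 0.0560 for Fzd2, 0.0608 for Fzd3 and 0.0483 for Fzd6, though none of them lies on that chromosome. The Frizzled genes with the highest level per kb were Fzd7 and Fzd5. Fzd7 was at 156 and 165 CPM in WT and at 167 and 154 CPM in the knockout, and Fzd5 at 229 and 212 CPM in WT and at 234 and 210 CPM in the knockout. Both overlapped between genotypes, with edgeR adjusted p-values of 0.997 and 0.968.

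Among the secreted modulators, 6 of 16 were tested, and the called genes were inhibitors of the Sfrp family that went opposite ways. Sfrp1 was the most abundant, at 109 and 105 CPM in WT and 79.5 and 68.7 CPM in the knockout, a log2 fold change of -0.53 (SE 0.099, adjusted p = 3.05e-03 in edgeR). Sfrp1 lies on chromosome 8, and removing the shift of that chromosome left a log2 fold change of -0.02. Sfrp2 was at 4.92 and 6.26 CPM in WT and at 9.24 and 8.46 CPM in the knockout, higher by 0.65 (SE 0.171, adjusted p = 0.0253 in edgeR). Without WT replicate 1 the adjusted p of Sfrp2 was 0.228, and in DESeq2 it was 0.187.

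All 14 genes of the destruction complex and cytoplasmic transducers were tested, and 1, Tnks, was called, beside 9.21% of all genes tested. Tnks codes for a tankyrase, which marks Axin for degradation, and its log2 fold change was -0.53 (SE 0.131, adjusted p = 0.0182 in edgeR). It lies on chromosome 8, and the value was -0.03 with the shift of that chromosome removed. Without WT replicate 1 its adjusted p was 0.116. Csnk1a1, a kinase that phosphorylates β-catenin, and Tnks2 were the most abundant genes of this list, with log2 fold changes of 0.03 (edgeR adjusted p = 0.881) and -0.16 (edgeR adjusted p = 0.334). Of the 13 nuclear partners, 0 were called in edgeR, beside 9.21% of all genes tested. Among these 13, 2 had an unadjusted p-value under 0.05, beside 3066 of all 13840 genes tested. The most abundant were the corepressor genes Ctbp2, at 0.15 (edgeR adjusted p = 0.328), and Tle4, at 0.04 (edgeR adjusted p = 0.862).

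Pluripotency genes that TCF7L1 is known to repress in ES cells were also counted. Of the 5, 0 had an adjusted p-value under 0.05 in edgeR, beside 9.21% of all genes tested. The median log2 fold change of the 5 was 0.001. At an unadjusted p-value under 0.05 there were 2, beside 3066 of all 13840 genes tested. Nanog was at 453 and 476 CPM in WT and at 473 and 456 CPM in the knockout. Esrrb was at 579 and 583 CPM in WT and at 681 and 602 CPM in the knockout. Tfcp2l1 had the largest difference, 0.34 (SE 0.118, adjusted p = 0.0956 in edgeR), with Nr5a2 at -0.23 (SE 0.098, adjusted p = 0.178 in edgeR). Klf2 was at -0.12 on this scale, and it lies on chromosome 8, where the median was -0.51.

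The 5 genes whose values over the 4 libraries were nearest to the pattern of Lef1 were Igf2, Gm13889, Prmt8, Bnip3 and Wnt7b. Likeness was the distance between log2 CPM values centred on each gene's mean, and it ran from 0.169 for Igf2, a fetal growth factor gene with a log2 fold change of 1.83, to 0.391 for Wnt7b. With 4 libraries this measure mainly finds genes with a rise of like size. Along chromosome 3, the 5 tested genes on either side of Lef1 had log2 fold changes between -0.62 and 0.43. Only Sgms2 among these 10 neighbours, chosen after its values were seen, was called, and it was lower (-0.62, SE 0.183, edgeR adjusted p = 0.0464). This 1 call of 10 stands beside 9.21% of all genes tested.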

How the data were processed

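The authors deposited 1 table of whole-number read counts per Entrez gene, with a gene length in bp. Reads had been aligned to mm10 with QuasR and HISAT2 and counted over UCSC Known Genes. Whether counting used strand is not given in the sources used here. Of 24594 genes, 24570 were matched to RefSeq symbols and positions (GRCm38.p6, the assembly of mm10).

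Counts were fitted for all genes with edgeR 4.0.16 in R 4.3.3 (filterByExpr with a minimum count of 10, TMM scaling, glmQLFit and glmQLFTest in legacy form, genotype as the only term, two-sided, Benjamini-Hochberg adjustment over 13840 genes). The methods name edgeR but no scaling, and TMM is the choice made here. The lists were 6 further Wnt lists, a list of TCF7L1-repressed genes and 5 marker lists. CPM used TMM-scaled library sizes, SD is over 2 libraries, and SE and 95% intervals came from the fold change and its F statistic. The methods call replicates independent without saying what was repeated, so p-values measure the spread between these libraries, which exceeded sampling noise (chi-square per degree of freedom 5.41 in WT and 7.78 in the knockout). Intervals do not cover differences between clones.

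Named genes are the 10 members, Smarca1, list genes with an adjusted p-value under 0.05 (up to 6 per list), the 2 most abundant tested genes per list, and the 5 genes nearest to Lef1. Other names were chosen after their values were seen. The members and lists were chosen with earlier results of these data known. The fit was also tested on simulated data. Alternatives were RLE, upper-quartile and no scaling, other filters, DESeq2 1.42.0, the edgeR 4 fit, the replicate number as a block, chromosomes 8 and Y left out, the chromosome 8 shift removed, and each library left out in turn.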

Additional observations from a re-analysis of the deposited data

How the results depend on the processing

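Lef1 kept its direction under all 14 alternatives, with log2 fold changes between 1.89 and 2.05. Of the other 9 genes, 0 had an adjusted p-value under 0.05 under every alternative with all 4 libraries except the replicate block. There the count was 1 of these 9 (Sp5, edgeR adjusted p = 0.0461). The replicate numbers come from the titles and do not establish pairs, since 2 pairs are too few (correlation of same-numbered deviations 0.184 across genes). Under the block the calls among the other pathway genes rose from 11 to 20, while those over all genes rose from 1274 to 3471. Pathway calls at the threshold of the study rose from 2 to 4, and the adjusted p of Myc in edgeR was 1.06e-04. The calls numbered 7 with genes of at least 1 count, where 1018 of all genes were called. With DESeq2 they numbered 5, where 751 of all genes were called. Of the 5, 1 was at the threshold of the study, and Wnt4 and Wnt8a had no adjusted p. With the chromosome 8 shift removed they numbered 7, and Sfrp1, Tnks, Fzd2 and Fzd3 lost their calls. Without chromosomes 8 and Y they numbered 5. Both of these also called fewer genes overall (662 and 574, beside 1274). With 1 library left out they ranged from 5 to 16. The cause was not tested.

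Values near 0 changed sign. Upper-quartile scaling gave 0.0151 for Tcf7, 0.00038 for Tcf7l1 and 0.0297 for Fzd7. Unscaled library sizes gave 0.0013 for Tcf7 and 0.0159 for Fzd7, and Fzd7 was 0.00066 with at least 10 counts in every library and 0.00011 with DESeq2. Leaving out chromosomes 8 and Y gave -0.0024 for Fzd5, and Nkd1 was 0.28 with the chromosome 8 shift removed. With 1 library left out, the log2 fold changes ranged from -0.0735 to 0.042 for Tcf7, -0.083 to 0.0226 for Tcf7l1, -0.0414 to 0.223 for Axin2, -0.218 to 0.789 for Cdx1, -0.00515 to 0.0844 for Porcn, -0.0633 to 0.0612 for Fzd7, -0.0685 to 0.0874 for Fzd5, -0.0175 to 0.0765 for Csnk1a1 and -0.038 to 0.112 for Tle4. Counts under about 50 a library, as for Nkd1 and Cdx1, limit what could be detected.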
